A study of Rattus norvegicus with 38 samples.

Results

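Complement and coagulation factors are plasma proteins, many of which circulate as inactive precursors, and most of the factors are made in the liver. The genes described here were chosen by symbol from a list of 43 genes of the complement and clotting cascades, and all 43 were present among the 31038 gene names of the deposited rat count table. The data were 38 livers of Sprague-Dawley rats, an outbred laboratory strain, collected on day 28, and RNA was counted per gene by sequencing. The extracts EF (2.5 g/kg), PF (2.5 g/kg) and RD (200 mg/kg) were given into the stomach, per the labels, which do not spell these names out. Lipopolysaccharide (LPS), a bacterial cell wall component that sets off the acute-phase response, was injected into the abdominal cavity, and the labels state neither its dose nor how long before collection. The control group (n = 5) received neither LPS nor an extract. EF (n = 5), EF_PF (n = 5) and EF_RD (n = 4) received EF alone, EF with PF, or EF with RD. LPS (n = 5) received LPS without an extract, and LPS_EF (n = 5), LPS_EF_PF (n = 4) and LPS_EF_RD (n = 5) received LPS with the same extracts. All groups share the strain, the collection day and 1 batch label, and PF and RD were never given without EF. Replicates are called biological in the design text.

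Complement is started by the C1 complex on antibodies, by mannose-binding lectins on microbial sugars, or by factor B and factor D in the alternative pathway. These routes meet at C3, and the terminal components C5 to C9 then form a pore in the target membrane. Coagulation is a chain of proteases that ends with thrombin cutting fibrinogen into fibrin, antithrombin and the protein C system hold it back, and plasmin dissolves the clot. In the acute phase the liver is known to make more fibrinogen and several complement proteins.

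The libraries held 19716622 to 35835012 counted read pairs, with a median of 24740186. Levels are given as CPM, read pairs relative to the TMM-scaled total of the library. Although the labelled cell type is hepatocyte, markers of macrophages, endothelial cells and stellate cells were counted in every group. In LPS against control, 7 of 10 hepatocyte markers were called lower and 0 higher. The list summed to 113487 to 144621 CPM in LPS against 158076 to 194660 CPM in control. Alb, with means of 76202 CPM in LPS and 105372 CPM in control, made up most of this sum. Apoa1 and Apob had higher means in LPS (1487 and 5869 CPM) than in control (1261 and 4839 CPM), and all other listed means were lower. In the same comparison 7 of 10 macrophage markers and 6 of 10 endothelial markers were called higher. So were 6 of the 6 neutrophil and monocyte markers tested, of 10 listed. Of all genes, 18.6% were called higher and 18.1% lower. In bulk liver, fewer cells of a type and less RNA per cell cannot be told apart, and the part of cell composition in the results was not tested. Some livers stood apart from their groups. EF 1, EF 5 and EF_RD 1, which had no LPS, had Socs3, a feedback inhibitor of cytokine signalling, at 24.5, 21.9 and 91.6 CPM, against 4.42 to 10.5 CPM in the other livers without LPS. LPS_EF 7 and LPS_EF_RD 6 had A2m, an acute-phase antiprotease of the rat, at 5.84 and 6.9 CPM, against 84.2 to 344 CPM in the other livers given LPS. EF_RD 1 and LPS 3 also held skeletal muscle markers, at 3882 and 376 CPM in sum. Exocrine pancreas markers summed to 2982 CPM in control 5, 1726 CPM in LPS 3 and 110 CPM in EF_RD 1, against at most 20.6 CPM in the other livers. Of the members called in LPS against control, C3 lost its call without control 5 and none did without LPS 3.

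The promoters of the fibrinogen genes are shown because these 3 genes lie side by side on 1 chromosome and all rose with LPS. Fgg (rn6 chromosome 2, 181987080 to 181994523, plus strand), Fga (181997562 to 182013726, plus strand) and Fgb (182028044 to 182035026, minus strand) encode the gamma, alpha and beta chains of the clot protein. The sequences are the 250 bases before each start site from RefSeq on build GRCr8, a different build from that of the counts, at chr2:170652833-170653082 (plus strand) for Fgg, chr2:170671919-170672168 (plus strand) for Fga and chr2:170700876-170701125 (minus strand) for Fgb. Capitals mark the letters CTGGGAA, a core of the interleukin-6 response element, and matches to TTNNGNAA, a C/EBP pattern, on the strand shown or its complement. For Fga, RefSeq lists a second start, and the first is shown. The RefSeq Fga spans 7404 bases and the counted interval 16165, so the start shown may not be that of the interval.
Fgg: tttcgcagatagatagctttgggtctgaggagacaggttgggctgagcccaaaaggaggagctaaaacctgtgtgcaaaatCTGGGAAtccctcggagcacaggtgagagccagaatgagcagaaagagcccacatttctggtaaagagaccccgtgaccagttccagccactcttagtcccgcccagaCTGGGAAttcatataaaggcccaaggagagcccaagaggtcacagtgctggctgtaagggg
Fga: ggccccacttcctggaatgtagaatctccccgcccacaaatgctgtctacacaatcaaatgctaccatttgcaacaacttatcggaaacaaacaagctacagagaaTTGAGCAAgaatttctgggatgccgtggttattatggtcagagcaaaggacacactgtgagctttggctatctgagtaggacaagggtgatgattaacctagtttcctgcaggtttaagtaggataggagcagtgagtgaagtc
Fgb: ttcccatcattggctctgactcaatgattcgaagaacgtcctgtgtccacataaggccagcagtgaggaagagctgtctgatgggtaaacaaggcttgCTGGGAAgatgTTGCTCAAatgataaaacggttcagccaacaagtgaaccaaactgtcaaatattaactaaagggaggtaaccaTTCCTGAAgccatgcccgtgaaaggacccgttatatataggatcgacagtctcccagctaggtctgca

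CTGGGAA was found at 2 places in the Fgg window, starting 169 and 61 bases before the start, and once in the Fgb window, 152 bases before it. The Fga window held none, and a C/EBP match lay 144 bases before its start. Fgb held C/EBP matches 141 and 68 bases before its start. Across the 32 members with a usable promoter in the table, CTGGGAA was in 4 of 8 members called higher with LPS (Fgg, Fgb, C3 and C4bpb), in 2 of 9 called lower (Plg and F9) and in 2 of 15 not called (C1r and Serpinc1). It was in 9.56% of all 33465 rat promoters of this length, and TTNNGNAA was in 37.2%. The C/EBP pattern was in 5 of 8 members called higher, in 7 of 9 called lower and in 8 of 15 not called. TTCNNNGAA, a STAT pattern, was in 3 of 8 called higher (Fga, Fgb and C4bpb), 2 of 9 called lower and 2 of 15 not called. It was in 7.67% of all promoters. Fga was counted by its first listed start, and the window of its second start held no match to TTCNNNGAA. An NF-kB pattern was in 2 of 8 called higher, 0 of 9 called lower and 5 of 15 not called, against 15%. Each motif was searched on both strands, TTCNNNGAA and TTNNGNAA can share bases, and a match is a description of letters, not of a bound site. C1qc, C1s, C2, C4b, C8g, C9, Cfb, Kng1, Masp2, Serpind1 and Serping1 were not used for promoters. Some genes that were used differ between the builds. C3 lies on the plus strand in rn6 and the minus strand in RefSeq, and Pros1 on chromosomes 7 and 11. Their counted spans were 0.964 and 0.999 of the RefSeq spans. For Mbl2 and C5 the counted span was 0.213 and 1.96 times the RefSeq span.

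How LPS alone changed these genes was asked by setting LPS against control livers. Fibrinogen, the kininogen Kng1, C9, C3, factor B, C4-binding protein, the C1 inhibitor, factor VII and antiplasmin rose, while heparin cofactor II, protein S, protein C, plasminogen, the contact proteases, factors IX and XIII B and the lectin Mbl2 fell. A gene is called here when its adjusted p in edgeR's quasi-likelihood test, corrected over 14786 genes, is under 0.05. By this test 12 members were called higher and 11 lower (53.5% of 43), against 36.8% of all genes tested (18.6% higher and 18.1% lower). The median log2 fold change of the members was 0.01, against -0.002 for all genes, so both medians lay near 0. The groups did not overlap for 11 members that were higher and 9 that were lower, against 12.5% and 12.4% of all genes. With the total count in place of TMM as the scaling, all genes had a median log2 change of 0.128, and 16 members were called higher and 10 lower. Of all 14786 genes, 3672 were called higher and 1428 lower at that scaling (34.5%). No called member changed direction under any scaling tried.

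**Figure D1:**
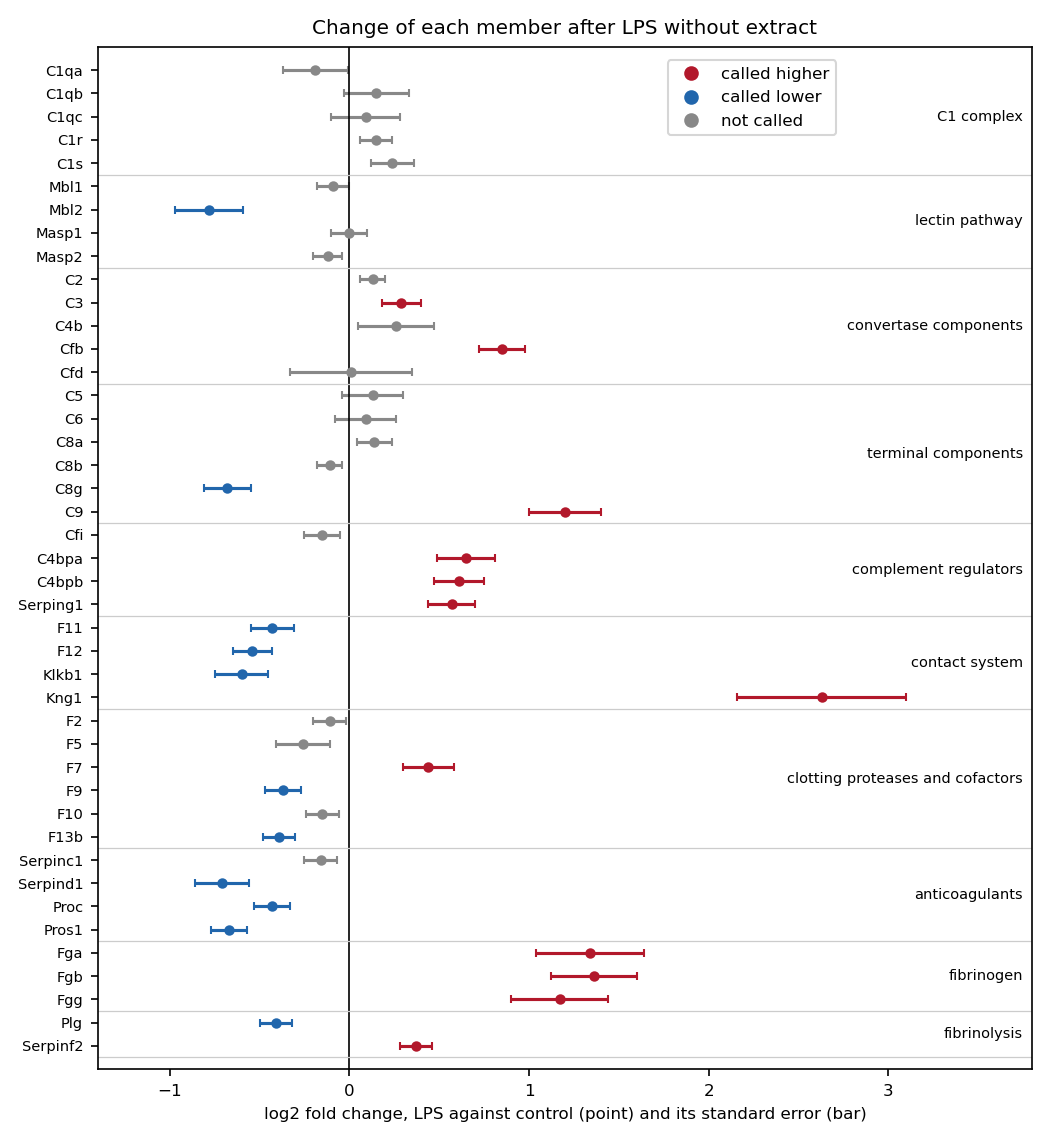
Log2 fold change of each of the 43 members in LPS against control (points) with its standard error (bars), ordered by role in the cascade. The 12 members called higher are red, the 11 called lower blue and the 20 not called grey. The fibrinogen genes lie between 1.17 and 1.36, Kng1 at 2.63, and none of the C1 complex was called.

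Levels per gene length, as the authors' TPM, in which counts are divided by gene length, show how unequal the members are. In control livers Fgb was the most abundant, with 7528 ± 777 TPM (SD, n = 5), followed by C3 with 5752 ± 581 TPM, Fgg with 4659 ± 416 TPM and Fga with 4371 ± 451 TPM. Mbl2 was the least abundant, with 3.02 ± 0.227 TPM, then Cfd with 18.7 ± 5.63 TPM and C4b with 39.4 ± 7.26 TPM. C3 and the fibrinogen genes stood above plasminogen (2881 ± 207 TPM), antithrombin Serpinc1 (2847 ± 65.4 TPM) and prothrombin F2 (2189 ± 107 TPM). Fgg and Fga lay within their SD, as did plasminogen and Serpinc1, with F2 below them. In LPS livers the 3 fibrinogen genes took the first 3 places, with Fgb at 20983 ± 3958 TPM, Fga at 11974 ± 2118 TPM and Fgg at 11401 ± 2257 TPM, the latter pair within their SD.

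The C1 complex, which opens the classical pathway, had 0 of 5 members called by edgeR in LPS against control, with 1 of 5 (C1s) at an unadjusted p under 0.05. C1qa, C1qb and C1qc, the chains of C1q, are known to come mainly from macrophages, and they had log2 fold changes of -0.19 ± 0.18, 0.15 ± 0.18 and 0.09 ± 0.19 (SE). C1qb ran from 47 to 76.6 CPM in control and from 57 to 77.5 CPM in LPS, and the groups overlapped throughout. C1r and C1s, its proteases, had 0.15 ± 0.09 and 0.24 ± 0.12. Over the same livers the summed level of the 10 macrophage markers was 231 to 484 CPM in control and 609 to 928 CPM in LPS. The C1q genes and the summed macrophage list thus gave different values in the same libraries. Of the 10 macrophage markers, 7 were called higher and 0 lower. Clec4f alone had a lower mean in LPS, at 125 ± 29 CPM in control and 102 ± 21.9 CPM in LPS, and was not called. Among genes outside the members, the C5a and C3a receptors C5ar1 and C3ar1 rose by 2.78 ± 0.35 and 2.32 ± 0.44 (adjusted p = 1.75e-06 and 0.000133). The complement receptor integrin chain Itgam, also on the neutrophil and monocyte marker list, rose by 2.96 ± 0.52 (adjusted p = 6.35e-05).

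In the lectin pathway, which recognises microbial sugars, 1 of 4 members was called. Mbl2, a mannose-binding lectin, was at 5.22, 4.29, 4.7, 4.08 and 4.65 CPM in the control livers and at 2.46, 2.95, 3.4, 1.71 and 2.83 CPM in the LPS livers. Every LPS liver lay below every control liver, at a low level throughout. The log2 fold change was -0.78 ± 0.19 (adjusted p = 0.00166). Mbl1, the other mannose-binding lectin, was far more abundant, at 245 ± 31.2 CPM in control and 231 ± 21.9 CPM in LPS, and was not called (-0.09 ± 0.09). Neither were the lectin proteases Masp1 (0.00 ± 0.10) and Masp2 (-0.12 ± 0.08). Other sugar-binding starters of this pathway also fell, with Fcna, a ficolin, at -1.13 ± 0.23, Colec10 at -0.89 ± 0.18 and Colec11 at -0.83 ± 0.14, while Fcnb, a ficolin of neutrophils and monocytes, rose by 2.89 ± 0.53 (adjusted p = 9.79e-05).

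Of the 5 genes that build the convertases, which cut C3 and C5, Cfb and C3 were called higher. Cfb, factor B of the alternative pathway, ran from 1937 to 2372 CPM in control and from 3254 to 4959 CPM in LPS with no overlap, a log2 fold change of 0.85 ± 0.13 (adjusted p = 2.18e-05). C3, the central component, had 16037 ± 1575 CPM in control and 19589 ± 2435 CPM in LPS, a change of 0.29 ± 0.11 (adjusted p = 0.0357) with overlapping groups. The C3 call was lost without control 3, control 5, control 6, LPS 1 or LPS 5, with an adjusted p of up to 0.148 without LPS 1. C2 (0.13 ± 0.07), C4b (0.26 ± 0.21) and Cfd, factor D (0.01 ± 0.34), were not called. C4b is uncertain, because C4a is a near-identical copy that was counted apart (0.21 ± 0.19, not called) and reads shared by both may have been left out of the counts.

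Within the terminal components, C9 rose and C8g fell, and the other 4 members were not called. C9, which polymerises into the membrane pore, was at 1586, 1844, 1690, 1719 and 1928 CPM in control and at 6064, 2946, 3802, 3690 and 3652 CPM in LPS. The lowest LPS liver was above the highest control liver, and LPS 1 was well above the rest of its group. The log2 fold change was 1.20 ± 0.20 (adjusted p = 4.08e-05), and without LPS 1 the adjusted p was 0.000298. C8g, the gamma chain of C8, was at 287, 210, 217, 228 and 268 CPM in control and at 134, 144, 152, 157 and 167 CPM in LPS. No liver overlapped, and the change was -0.68 ± 0.13 (adjusted p = 0.000114). The other C8 chains did not follow it, C8a at 0.14 ± 0.10 and C8b at -0.11 ± 0.07. C5 and C6, which start the pore, were at 0.13 ± 0.17 and 0.09 ± 0.17.

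Of the 4 complement regulators, 3 were called higher. C4bpa and C4bpb, the alpha and beta chains of C4-binding protein, which limits the classical convertase and carries protein S in plasma, rose by 0.65 ± 0.16 and 0.61 ± 0.14 (adjusted p = 0.00242 and 0.0013). C4bpb was at 546, 402, 440, 489 and 509 CPM in control and at 917, 681, 585, 739 and 717 CPM in LPS, with no overlap. LPS 1 was again the highest, and without it the change of C4bpa was 0.42 (adjusted p = 0.0256). Serping1, the C1 inhibitor, which also blocks the contact proteases, went from 877 ± 16 to 1306 ± 370 CPM (0.57 ± 0.13, adjusted p = 0.00109). Without LPS 1 its change was 0.38 (adjusted p = 0.011). Cfi, the protease that inactivates C3b, was not called (-0.15 ± 0.10).

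The contact system starts clotting on surfaces and releases bradykinin from kininogen. All 4 members listed under it were called, 3 lower and 1, Kng1, higher, though the gene counted as Kng1 may be another kininogen (below). The proteases F12 (-0.54 ± 0.11), Klkb1, plasma prekallikrein (-0.60 ± 0.15), and F11 (-0.43 ± 0.12) fell, with adjusted p of 0.000436, 0.00165 and 0.00652. In each of them every LPS liver was below every control liver. The F11 call was lost with total-count scaling and on TPM. Kng1, listed as a kininogen, was at 356, 388, 598, 348 and 408 CPM in control and at 5586, 1362, 2039, 1883 and 2128 CPM in LPS. The groups were far apart, with LPS 1 highest, and the log2 fold change was 2.63 ± 0.47 (adjusted p = 8.06e-05) and 2.14 without LPS 1.

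Which kininogen this name stands for is uncertain, and the gene counted under it does not match the RefSeq gene named Kng1. Rats carry several kininogen genes, among them T-kininogens, which are known acute-phase proteins of this species. The gene counted as Kng1 lies on rn6 chromosome 11 at 81509185 to 81516759 on the plus strand, with 732 bases of exon. The RefSeq gene named Kng1 on GRCr8 lies on the minus strand, spans 22795 bases and has Kng1l1 as an older name, and RefSeq gives Kng1 as an older name of Kng2 and Kng2l1. The gene counted as Kng1l1 lies on the minus strand and spans 22795 bases in rn6, and so matches the RefSeq gene named Kng1 in both. It ran from 893 to 1535 CPM in control and from 5667 to 16147 CPM in LPS, a change of 2.98 ± 0.47 (adjusted p = 1.84e-05). Both names gave the same direction, and reads shared by the copies could have gone uncounted.

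**Figure D2:**
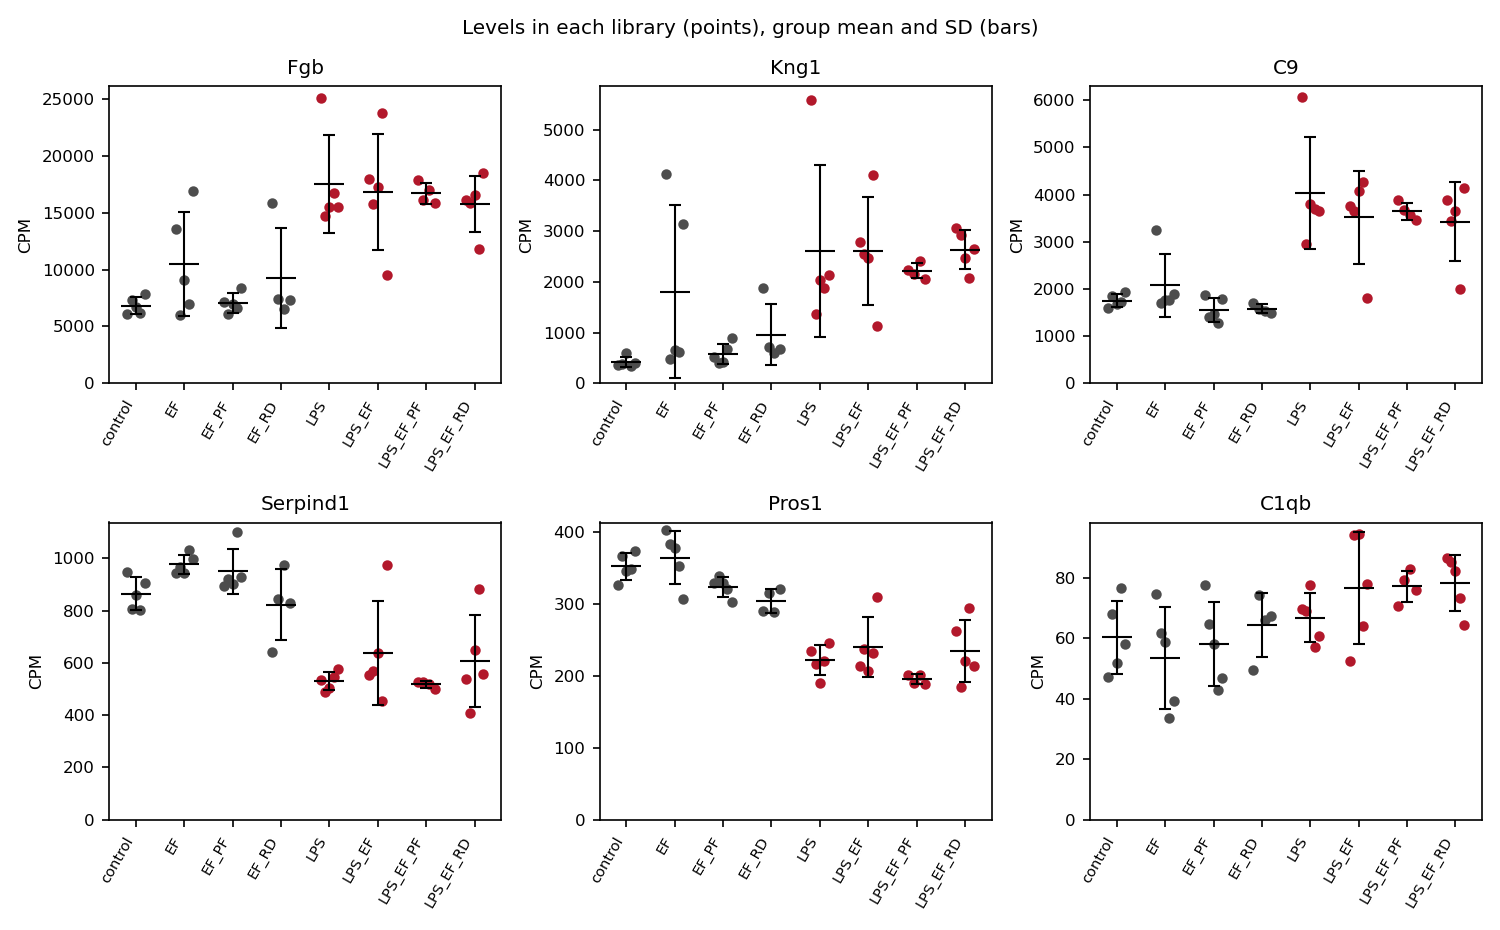
CPM of 6 members in each of the 38 livers (points, grey without LPS and red with LPS), with the group mean and SD (bars), on axes that start at 0. Fgb, Kng1 and C9 are higher and Serpind1 and Pros1 lower in LPS than in control, while C1qb overlaps. EF 5 and EF_RD 1 lie within the range of the LPS group in Fgb, and LPS_EF 7 lies near the control livers in C9.

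Among the clotting proteases and their cofactors, F7 was called higher, F9 and F13b lower, and F2, F5 and F10 were not called. F7, factor VII, which starts clotting with tissue factor, went from 45.2 to 65.6 CPM in control to 68.8 to 90.4 CPM in LPS (0.44 ± 0.14, adjusted p = 0.0131). F9, factor IX, went from 1076 ± 75.6 to 834 ± 138 CPM (-0.37 ± 0.10, adjusted p = 0.00315). F13b, the carrier chain of the fibrin-linking factor XIII, went from 436 ± 37.4 to 333 ± 33.8 CPM (-0.39 ± 0.09, adjusted p = 0.00106). For F9 and F13b the groups overlapped, and for F7 they did not. Prothrombin F2 (-0.11 ± 0.09), the cofactor F5 (-0.26 ± 0.15) and factor X, F10 (-0.15 ± 0.09), had smaller values. F7 and F10 are neighbours on rn6 chromosome 16, with F10 at 81803169 to 81822476 and F7 at 81824610 to 81834923.

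The anticoagulants fell in 3 of 4 cases. Serpind1, heparin cofactor II, which inhibits thrombin, was at 947, 805, 860, 801 and 904 CPM in control and at 535, 490, 502, 545 and 575 CPM in LPS. Pros1, protein S, the cofactor of activated protein C, was at 326, 366, 346, 349 and 374 CPM in control and at 235, 217, 190, 221 and 246 CPM in LPS. Both genes separated the groups with no overlap and little spread. Their log2 fold changes were -0.71 ± 0.15 (adjusted p = 0.000474) and -0.67 ± 0.10 (adjusted p = 1.15e-05), the latter the smallest adjusted p of the 43 members here. Proc, protein C itself, fell by 0.43 ± 0.10 on the log2 scale (adjusted p = 0.00136). Serpinc1, antithrombin, was not called (-0.16 ± 0.09). Serpina5, the protein C inhibitor, which is not a member, changed by -1.13 ± 0.32 (adjusted p = 0.00623), and the endothelial receptor of protein C, Procr, by 1.55 ± 0.51 (adjusted p = 0.016).

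All 3 fibrinogen genes rose. Fga was at 6215, 7272, 7529, 6356 and 7674 CPM in control and at 25072, 14416, 16211, 16215 and 16565 CPM in LPS. Fgb was at 6072, 7344, 6710, 6196 and 7866 CPM in control and at 25162, 14715, 15542, 16714 and 15553 CPM in LPS. Fgg was at 5200, 5914, 5778, 5109 and 6475 CPM in control and at 18669, 10466, 11161, 12153 and 11736 CPM in LPS. In each gene the LPS livers lay well above the control livers, and LPS 1 lay above the other 4. The log2 fold changes were 1.34 ± 0.30 for Fga, 1.36 ± 0.24 for Fgb and 1.17 ± 0.27 for Fgg (adjusted p = 0.000735, 8.23e-05 and 0.000974), that is 2.53-fold, 2.57-fold and 2.25-fold in the fit. Without LPS 1 they were 1.17, 1.19 and 0.99.

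In fibrinolysis the enzyme precursor and its inhibitor moved apart. Plg, plasminogen, ran from 4024 to 4886 CPM in control and from 3076 to 3561 CPM in LPS (-0.41 ± 0.09, adjusted p = 0.00101). Serpinf2, the plasmin inhibitor antiplasmin, ran from 837 to 964 CPM in control and from 1025 to 1425 CPM in LPS (0.37 ± 0.09, adjusted p = 0.00199). Neither pair of groups overlapped. Of the wider clotting and fibrinolysis list, 16 of 32 genes tested were called higher and 1 lower, with a median of 0.73. They included the protease inhibitor A2m at 7.27 ± 0.97, the urokinase gene Plau at 1.62 ± 0.36 with its receptor Plaur at 1.66 ± 0.37, and Vwf, the platelet adhesion protein of endothelium, at 1.48 ± 0.40. Vwf is also among the endothelial markers, 6 of 10 of which were called higher. Of the wider complement list, 10 of 28 genes tested were called higher and 6 lower. It shares Itgam with the neutrophil and monocyte markers and Vsig4 with the macrophage markers. Beside the counts of both lists, 18.6% of all genes were called higher and 18.1% lower.

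Of 18 tested genes that act upstream of liver complement and clotting genes, 3 were called higher and 5 lower with LPS. Of all genes, 18.6% were called higher and 18.1% lower. Il1b, an inflammatory cytokine, changed by 2.23 ± 0.30 and Socs3 by 2.09 ± 0.63 (adjusted p = 3.42e-06 and 0.00935). The hepatocyte transcription factors Hnf4a, Cebpa and Cebpb changed by -0.69 ± 0.14, -0.68 ± 0.20 and -0.71 ± 0.20 (adjusted p = 0.000287, 0.00718 and 0.00549). Stat3, which transmits interleukin-6 signals, was not called (0.76 ± 0.32, adjusted p = 0.0575).

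The same LPS contrast was read within each extract treatment. With EF and PF the count was as without extract: 10 members were called higher and 13 lower in LPS_EF_PF against EF_PF (53.5%, against 36.5% of all genes, 19.2% higher and 17.3% lower). In LPS_EF against EF, 4 were called higher and 7 lower (25.6%, against 29.1% of all genes, 14.6% higher and 14.5% lower), a share near that of all genes. In LPS_EF_RD against EF_RD, 8 were called higher and 5 lower (30.2%, against 23.5%, 12.8% higher and 10.7% lower). C9, Cfb and Fgb were called higher, and F9, Mbl2, Pros1 and Serpind1 lower, in all 4 LPS contrasts. In sign alone, 17 members were higher and 17 lower in all 4. C1qa, C1qc, C1r, C1s, Mbl1, Masp1, Masp2, C2, C4b, C5, C8a, C8b, Cfi, F2 and F10 were called in none of the 13 comparisons made. With total-count scaling the split was 8 higher and 4 lower with EF, 16 and 8 with EF and PF, and 10 and 5 with EF and RD. All genes tilted upward in those fits as well, with 2537 called higher and 1210 lower with EF (25.3% called), 4022 and 1103 with EF and PF (34.7%), and 2071 and 1128 with EF and RD (21.6%).

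**Figure D3:**
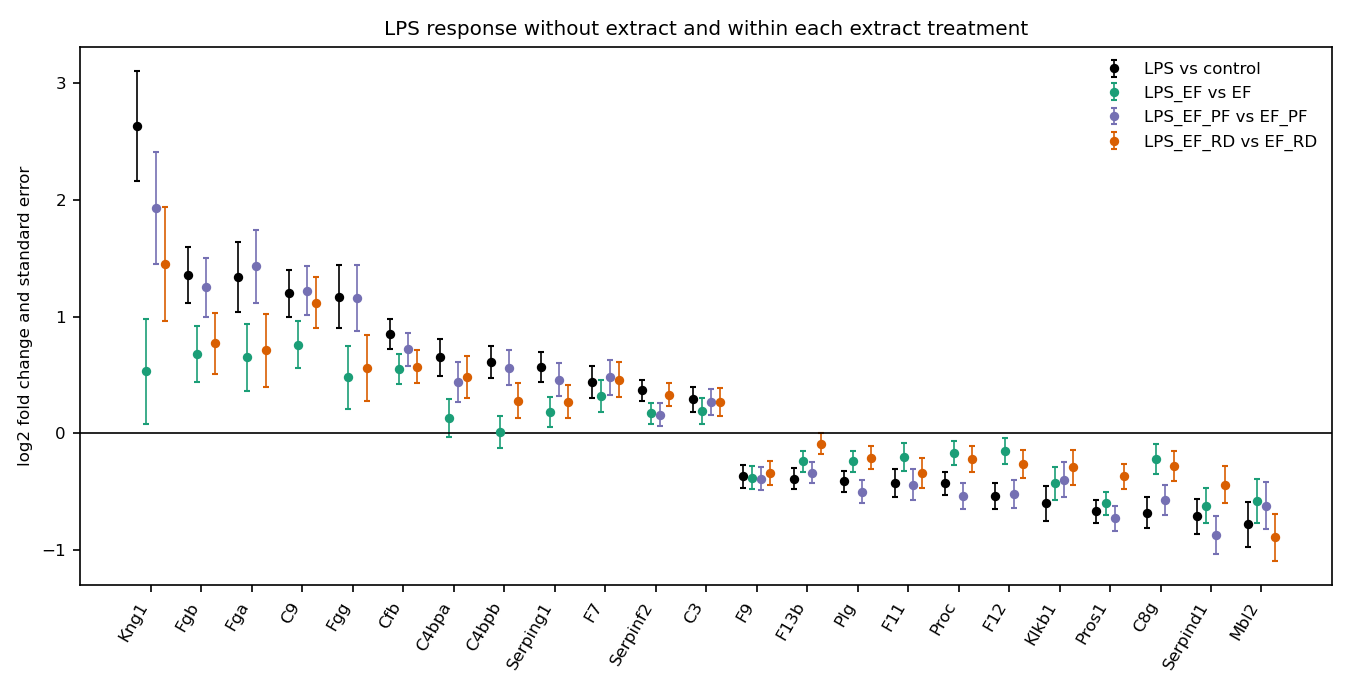
Log2 fold change with its standard error of the 23 members called in LPS against control, in that contrast (black) and in LPS against no LPS within EF (green), EF with PF (purple) and EF with RD (orange). Purple lies near black for most members, and green lies nearer 0 than black for Kng1, at 0.53 against 2.63. The differences between contrasts were tested by the interactions and none was called.

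In LPS_EF against EF the fibrinogen genes changed by 0.68 ± 0.24 for Fgb (adjusted p = 0.0314), 0.65 ± 0.29 for Fga (adjusted p = 0.094) and 0.48 ± 0.27 for Fgg (adjusted p = 0.174). Fgb was at 13543, 5981, 9095, 6983 and 16906 CPM in EF and at 18001, 15778, 17239, 23795 and 9517 CPM in LPS_EF. The groups overlapped through EF 1 and EF 5 on the high side and LPS_EF 7 on the low side. C9 changed by 0.76 ± 0.20 and Cfb by 0.55 ± 0.13 (adjusted p = 0.00476 and 0.00249). C1qb was called too, at 0.52 ± 0.18 (adjusted p = 0.0309), and its interaction with EF was 0.37 ± 0.26 and not called. Lower were Serpind1 at -0.62 ± 0.15, Pros1 at -0.60 ± 0.10, Mbl2 at -0.58 ± 0.19, Klkb1 at -0.43 ± 0.14, F9 at -0.38 ± 0.10, F13b at -0.24 ± 0.09 and Plg at -0.24 ± 0.09. Pros1 had the smallest adjusted p (7.08e-05). The calls of F9, Cfb, Serpind1, Pros1 and C9 held without any 1 of the 10 livers. Those of Klkb1, F13b, C1qb, Fgb, Mbl2 and Plg were each lost in 3 to 8 of the 10 omissions, at an adjusted p of up to 0.123, for F13b without LPS_EF 6. LPS_EF 7 was the liver whose omission ended none of them.

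In LPS_EF_PF against EF_PF the changes were close in size to those without extract. Fga rose by 1.43 ± 0.31, Fgb by 1.25 ± 0.25, Fgg by 1.16 ± 0.28 and C9 by 1.22 ± 0.21 (adjusted p = 0.00057, 0.000293, 0.00155 and 4.47e-05). Fgb ran from 6101 to 8387 CPM in EF_PF and from 15915 to 17932 CPM in LPS_EF_PF, and the groups were narrow and far apart. Kng1 rose by 1.93 ± 0.48, Cfb by 0.72 ± 0.14, C4bpb by 0.56 ± 0.15, F7 by 0.48 ± 0.15, Serping1 by 0.46 ± 0.14 and C4bpa by 0.44 ± 0.17. Serpind1 changed by -0.87 ± 0.16, Pros1 by -0.73 ± 0.11, Mbl2 by -0.62 ± 0.20, F5 by -0.59 ± 0.16, C8g by -0.57 ± 0.13, Proc by -0.54 ± 0.11, F12 by -0.52 ± 0.12 and Plg by -0.50 ± 0.10. F11, Klkb1, F9, F13b and Serpinc1 lay between -0.44 and -0.25 and were also called. All 23 of these members had groups with no overlap, and in all 11 members were higher and 15 lower in this sense, against 19.5% and 17.6% of all genes. The calls of F7 (without LPS_EF_PF 1), F11 (without LPS_EF_PF 6) and Mbl2 (without LPS_EF_PF 3) were lost at an adjusted p of 0.0535, 0.0539 and 0.0694. Klkb1, Serpinc1 and C4bpa lost theirs in 5, 7 and 8 of 9 omissions, at up to 0.12, 0.125 and 0.125.

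In LPS_EF_RD against EF_RD, Kng1 rose by 1.45 ± 0.49, C9 by 1.12 ± 0.22, Fgb by 0.77 ± 0.26, Cfb by 0.57 ± 0.14, C6 by 0.49 ± 0.18, C4bpa by 0.48 ± 0.18, F7 by 0.46 ± 0.15 and Serpinf2 by 0.33 ± 0.10. Mbl2 changed by -0.89 ± 0.20, Serpind1 by -0.44 ± 0.16, Pros1 by -0.37 ± 0.11 and F9 by -0.34 ± 0.10. Fgb was at 15899, 7419, 6500 and 7290 CPM in EF_RD and at 16128, 15859, 16574, 11797 and 18548 CPM in LPS_EF_RD. Only EF_RD 1 reached the LPS_EF_RD livers, and without it the change of Fgb was 1.16. The Fgb call was lost in 6 of 9 omissions, at an adjusted p of up to 0.115 without EF_RD 3. C9, Cfb, Mbl2, Pros1 and Serpinf2 kept their call in every omission. F9, F7, Kng1, Serpind1, C4bpa and C6 lost theirs in 1 to 7 of 9, at up to 0.158, for Serpind1 without EF_RD 3. Cfd was also called, at -1.22 ± 0.35 (adjusted p = 0.012), and without EF_RD 1 its change was -0.09 (adjusted p = 0.826).

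Whether an extract changed the LPS response was tested by the interactions, and edgeR called 0 of 43 members in each. At an unadjusted p under 0.05 there were 7 members for EF, 0 for EF with PF and 3 for EF with RD, and DESeq2, limma voom and limma on TPM also called 0. Of all genes, 0.108%, 0.0812% and 0.128% were called. The smallest adjusted p for EF was that of Kng1, at 0.399, with an interaction of -2.10 ± 0.64 on the log2 scale. Kng1 was at 4116, 485, 664, 617 and 3143 CPM in EF and at 2782, 2543, 2466, 4106 and 1125 CPM in LPS_EF. EF 1 and EF 5 lay at the level of livers given LPS, and the other 3 lay near control. For EF with RD it was that of Cfd, at 0.558 (-1.23 ± 0.49). For EF with PF the smallest was 0.988, shared by many members, of which Serpinf2 had the smallest unadjusted p (-0.21 ± 0.13). The standard errors of the fibrinogen interactions with EF were 0.34 to 0.41, at values of -0.69 to -0.68, so a change of this size could not be told from 0 by this test.

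Set directly against LPS livers, the extract groups had no member called by edgeR. The count was 0 of 43 in LPS_EF, LPS_EF_PF and LPS_EF_RD against LPS, where 0.108%, 0.0406% and 0.0135% of all genes were called. At an unadjusted p under 0.05 there were 2, 0 and 2 members, and DESeq2, limma voom and limma on TPM called 0 as well. The smallest adjusted p was 0.319, for F12 in LPS_EF, which had 592 ± 81.1 CPM against 478 ± 21.8 CPM in LPS (0.31 ± 0.11). Fgb had 17537 ± 4321 CPM in LPS, 16866 ± 5115 CPM in LPS_EF, 16743 ± 925 CPM in LPS_EF_PF and 15781 ± 2464 CPM in LPS_EF_RD. These means differ by less than the SD of the LPS group. The log2 changes of Fgb were -0.06 ± 0.24, -0.07 ± 0.25 and -0.15 ± 0.24. Pros1 had 222 ± 21.3 CPM in LPS and 240 ± 40.9, 195 ± 6.68 and 235 ± 43.2 CPM in the 3 extract groups, in the same order. The 3 contrasts share the LPS livers.

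**Figure D4:**
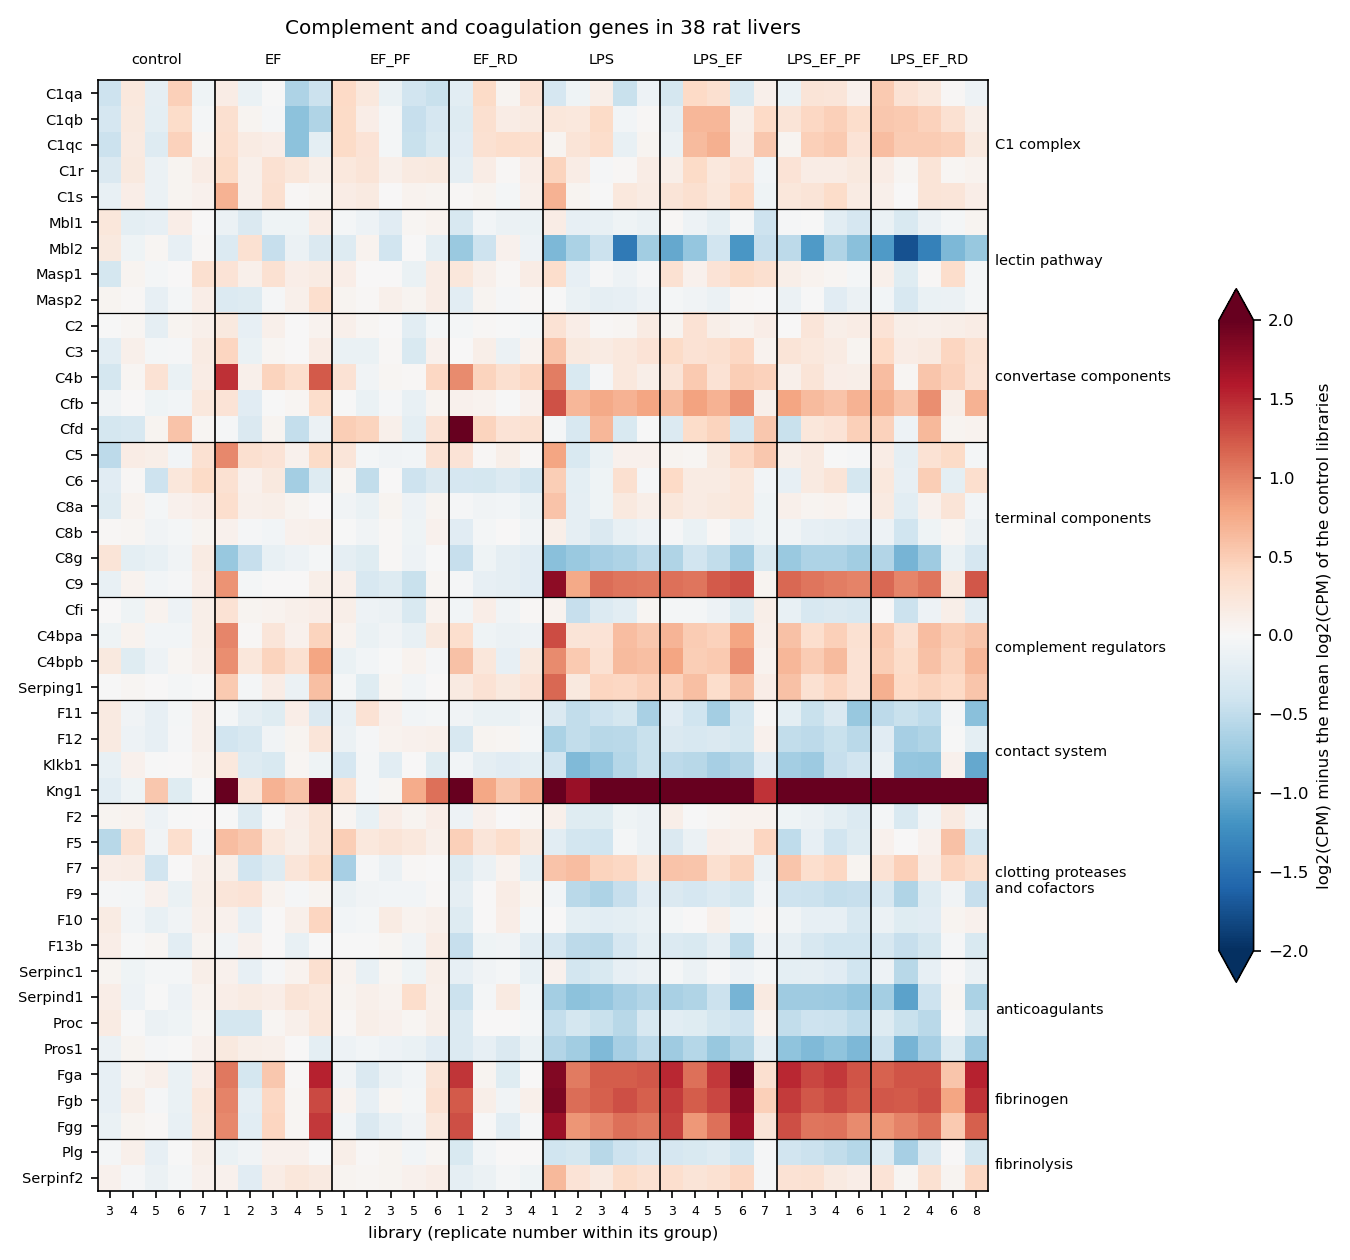
Level of the 43 members (rows, by role) in each of the 38 livers (columns, by group and replicate number), as log2 CPM minus the mean log2 CPM of the control livers. Colours saturate at 2 above or below control. The fibrinogen rows, C9, Cfb and Kng1 are red and Pros1 and Serpind1 blue in most livers given LPS. In LPS_EF 7 and LPS_EF_RD 6 C9 and Cfb are pale and Serpind1 is not blue, at 973 and 883 CPM, and EF 1, EF 5 and EF_RD 1 are red in the fibrinogen rows without LPS.

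Without LPS, few members were called against control. At an unadjusted p under 0.05 edgeR gave 12 of 43 members in EF, all 3 fibrinogen genes among them, and 4 in EF_RD. EF livers had 2 members called higher and 0 lower (against 0.92% of all genes, 0.656% higher), EF_PF livers 0 (against 0.622%) and EF_RD livers 1 higher (against 1.52%, 0.859% higher). In EF, Kng1 was the larger change, 2.11 ± 0.46 (adjusted p = 0.017). Its 5 EF values, given above, split into 2 high and 3 low livers, with the control livers at 348 to 598 CPM. Without EF 1 the adjusted p was 0.115, and the call was also lost without EF 5, control 4 or control 6. Kng1l1 followed, at 10936 CPM in EF 1 and 7976 CPM in EF 5, against 1413 to 1795 CPM in the other 3 EF livers.

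C4bpb was the other member called in EF. It was at 905, 557, 648, 589 and 823 CPM in EF, and every EF liver was above every control liver. The log2 fold change was 0.56 ± 0.14 (adjusted p = 0.0475). This call was lost in 7 of 10 omissions, of control 4, 5, 6 or 7 or of EF 1, 3 or 5, at an adjusted p of up to 0.174 without EF 1. The fibrinogen genes were not called in EF (Fga 0.71 ± 0.29, Fgb 0.62 ± 0.24, Fgg 0.65 ± 0.27, adjusted p = 0.306, 0.266 and 0.302). Fga was at 14442 CPM in EF 1 and 20278 CPM in EF 5 and at 5502, 10094 and 7076 CPM in the others, so EF 1 and EF 5 had the highest values. In EF_PF, Fga ran from 5736 to 8322 CPM and Kng1 from 398 to 883 CPM, and edgeR gave 0 members at an unadjusted p under 0.05, and DESeq2, limma voom and limma on TPM called 0.

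In EF_RD the 1 call was Cfd, factor D, also called adipsin, a complement protease made chiefly by fat cells. Cfd was at 61.2, 11.3, 10.1 and 10.3 CPM in EF_RD and at 6.52, 6.71, 8.7, 12.4 and 8.52 CPM in control. A single liver, EF_RD 1, was high, and the other 3 overlapped control. The log2 fold change of 1.44 ± 0.35 (adjusted p = 0.0301) was 0.30 without EF_RD 1 (adjusted p = 0.658), and the call was also lost without control 3, 4 or 7. In EF_RD 1 the fat cell markers Adipoq, Plin1 and Fabp4 were at 62.5, 19.3 and 84.4 CPM, against at most 0.748, 0.396 and 1.45 CPM in the other EF_RD livers, and a list of 5 fat cell markers, chosen after the values were seen, summed to 325 CPM against 69.9 to 84.8 CPM. Their part in the result was not tested. EF_RD 1 also had Kng1 at 1871 CPM and Fga at 18910 CPM, against 596 to 705 CPM and 5901 to 7287 CPM in the other EF_RD livers.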

How the data were processed

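The deposited counts are whole read pairs per gene name. Per the file headers, the authors used featureCounts 2.0.6 with an rn6 RefSeq annotation and set neither strand nor multi-mapping options. Reads from overlapping antisense genes could not be told apart. The submitters' processing notes list, besides featureCounts, the programs STAR and RSEM and the genome mRatBN7.2, and positions here are those of the count table. The deposited TPM values are length-scaled counts (largest relative difference 0.0495%) and served for levels per length and as an alternative. No 2 libraries were identical, and that replicates are separate animals rests on the word biological in the design text.

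Tests on counts used edgeR 4.0.16 with R 4.3.3 (TMM, quasi-likelihood F-test, 1 mean per group, all 38 libraries in 1 fit). The low-count filter, with a minimum count of 10 and a minimum total of 15, left 14786 genes, all 43 members included. P-values are two-sided and adjusted by the Benjamini-Hochberg method over these genes within each of 13 comparisons. CPM are counts relative to the TMM-scaled library total, and ± is the SE of a log2 fold change and the SD of a level. Alternatives used DESeq2 1.42.0, limma 3.58.1, other scalings and filters, a replicate block and omissions of single libraries. The fit was tested on simulated data.

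The members and gene lists were chosen with earlier results of these data known. In LPS against control, the 4 called members with the largest rise, the 4 with the largest fall and the fibrinogen genes are given in every liver, and all other called members by their change. Read pairs carry no molecular identifiers, so duplicate copies of a molecule could not be told apart. The depth was 19716622 to 35835012 counts per library, and its bearing on counting precision was not tested. Promoter sequences are from RefSeq (GRCr8), matched by symbol for 32 of 43 members. No protein sequences were used here. Some results are not reported here.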

Additional observations from a re-analysis of the deposited data

Results flagged for a closer look

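In 16 of 88 group levels of 11 members, 1 liver stood apart from its group by more than Dixon's 95% limit. Chance flags about 1 in 20 independent groups, but these members were picked by their calls in the same livers. The fibrinogen genes were also flagged in the same livers as each other, so 16 of 88 cannot be set against that rate. LPS 1 was the highest LPS liver in Kng1 (5586 CPM, the others up to 2128), Fgb (25162, up to 16714), Fga (25072, up to 16565), Fgg (18669, up to 12153) and C9 (6064, up to 3802). EF_RD 1 was the highest EF_RD liver in Kng1 (1871 CPM, the others up to 705), Fgb (15899, up to 7419), Fga (18910, up to 7287), Fgg (13879, up to 5645) and Cfd (61.2, up to 11.3). These 2 livers account for 10 of the 16 flags.

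C9 was at 3258 CPM in EF 1, above 1697 to 1890 CPM in the other EF livers. LPS_EF 7 had the lowest C9 of LPS_EF (1818 CPM, the others at least 3662) and the highest Pros1 (310 CPM, the others up to 237). Kng1 was at 598 CPM in control 5, above 348 to 408 CPM. Serpind1 was at 1102 CPM in EF_PF 5, above 895 to 928 CPM, and Cfd at 13.2 CPM in LPS 3, above 6.7 to 8.27 CPM.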

How the results depend on the processing

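Over 73 gene results and 1387 values under alternatives, 1187 kept direction and side of the threshold, 200 kept direction but were not called, and 0 reversed. In all, 41 gene results were called under every alternative. Members called in LPS_EF against EF numbered 5 with only the groups compared in the fit and 6 to 15 with 1 library left out, against 11. In LPS_EF_RD against EF_RD they numbered 6 with only the groups compared and 7 to 19 with 1 library left out, against 13. In EF against control, 2 members were called, 1 with DESeq2 size factors or with no filter, 0 with limma voom, with either TPM pseudocount (1 or 0.1) or with only the groups compared, and 0 to 3 with 1 library left out. In EF_RD against control, 1 member was called, 0 with limma voom, on TPM, with only the groups compared or without EF_RD 1 and LPS 3 together, and 0 to 1 with 1 library left out. With only the groups compared, the share of all genes called also fell, from 29.1% to 15.6% in LPS_EF against EF and from 23.5% to 12.3% in LPS_EF_RD against EF_RD. The causes of these differences were not tested, beyond fewer libraries in the fits that leave some out.

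The replicate number as a block gave 1 call in EF against control (C4b, in place of Kng1 and C4bpb) and 0 in EF_RD against control. It gave 10 higher and 11 lower in LPS against control, and 5 and 9 with EF. It gave 10 and 14 with EF and PF, and 6 and 3 with EF and RD. Of all genes, the block called 0.92% in EF against control and 1.72% in EF_RD against control. In the LPS contrasts it called 24.1% without extract, 34.8% with EF, 37.8% with EF and PF and 21.2% with EF and RD. Without the block these shares were 36.8%, 29.1%, 36.5% and 23.5%. Same-numbered libraries of different groups had correlations of their deviations from -0.247 to 0.453, with a median of 0.018 over 88 pairs. The median for different numbers was 0.001. These correlations cannot show whether same-numbered animals shared housing or handling. The block is given here only. The block ended the calls of F7 and C3 in LPS against control, of F7, Serpind1, Cfd and C6 with EF and RD, of Kng1 and C4bpb in EF and of Cfd in EF_RD. The standard errors given come from a spread estimated over all 38 livers in 1 fit, with groups of 4 or 5. A group's own spread does not alone set them. Mbl2 and Cfd had the fewest counts of the members, which limits their precision.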
